A study of Mus musculus with 14 samples.

Results

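Transcription factor (TF) binding around Gfi1 and Gfi1b was described from lists of ChIP-seq peaks. Gfi1 lies on the minus strand of chromosome 5 (chr5:107716655-107725805, GRCm38), and Gfi1b lies on the minus strand of chromosome 2 (chr2:28609450-28621982). A peak was assigned to a locus if it overlapped the RefSeq span of the gene extended by 60 kb on each side. This rule found 29 peaks at Gfi1 and 33 at Gfi1b, which is 62 of the 158488 peaks in all 14 lists. Distances are given from the annotated transcription start site (TSS) to the centre of a peak, in the reading direction of the gene, so that negative values lie upstream.

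GFI1 and GFI1B are closely related zinc finger proteins that bind DNA and repress transcription. Through a short N-terminal SNAG domain they recruit the histone demethylase LSD1 together with CoREST and histone deacetylases. In blood development both are known for silencing endothelial genes when hemogenic endothelium gives rise to blood cells, and both are known targets of RUNX1. Later on, GFI1 acts mainly in myeloid and lymphoid cells and GFI1B mainly in red cells and megakaryocytes.

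The cells were differentiated in culture from a mouse embryonic stem cell line with a GFP reporter in the Brachyury gene, and all populations share this reporter. Mesoderm (MES) was sorted as GFP-positive and Flk1-negative, hemangioblasts (HB) as positive for both, hemogenic endothelium (HE) as CD41-negative cells with Tie2 and Kit on their surface, hematopoietic progenitors (HP) by CD41 and macrophages (MAC) by CD11b. The lists used here comprised C/EBPβ at all 5 stages, ELK4 in MES, GATA2 in HB and HP, GATA1 and GFI1B in HP, and RUNX1 and PU.1 in HP and MAC. The study also mapped other factors, such as TAL1, LMO2 and FLI1, whose peaks were not examined here. Each factor and stage was represented by 1 list without peak heights, so no value has a replicate error, no difference was tested, and sequencing depth was not used here. List lengths ran from 72 peaks (MAC RUNX1) to 82866 (MAC PU.1), and a threshold was set separately for each list, so a missing peak cannot be told apart from a peak under that threshold.

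GFI1B itself occupied 6 regions at the 2 loci, and their DNA is shown because here a repressor was mapped around its own gene and around the gene of its closest relative. All 6 sequences are from the RefSeq GRCm38 genome, on the minus strand, which is the strand of both genes. The first lies at -33.5 kb of Gfi1 in an intron of Evi5 (chr5:107759154-107759453) and the second at -514 bp, outside annotated genes (chr5:107726170-107726469). The third is the 250 bases upstream of the Gfi1b TSS (chr2:28621983-28622232). The others lie between genes downstream of Gfi1b, at 19.6 kb (chr2:28602231-28602530), 22.5 kb (chr2:28599299-28599598) and 23.8 kb (chr2:28598012-28598311). Apart from the promoter, each is the 300 bases around the median peak centre. Capitals mark matches, on either strand, to a short word for each of 7 factor families. The GFI1 word was AATCACNGC. For the GATA family the letters AGATAA were used. For RUNX factors the letters were TGTGGT. The C/EBP word was TTGCNNAA, the PU.1 word was GAGGAAGT and the ELK word was CCGGAAGT. The last was TGANTCA, the word of AP-1.
Gfi1 at -33.5 kb: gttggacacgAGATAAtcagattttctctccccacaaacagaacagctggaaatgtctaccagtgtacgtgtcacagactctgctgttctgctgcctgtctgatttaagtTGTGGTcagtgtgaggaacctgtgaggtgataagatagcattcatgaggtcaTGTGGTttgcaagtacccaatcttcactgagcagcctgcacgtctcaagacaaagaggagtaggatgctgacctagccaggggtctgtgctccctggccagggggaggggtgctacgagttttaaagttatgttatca
Gfi1 promoter at -514 bp: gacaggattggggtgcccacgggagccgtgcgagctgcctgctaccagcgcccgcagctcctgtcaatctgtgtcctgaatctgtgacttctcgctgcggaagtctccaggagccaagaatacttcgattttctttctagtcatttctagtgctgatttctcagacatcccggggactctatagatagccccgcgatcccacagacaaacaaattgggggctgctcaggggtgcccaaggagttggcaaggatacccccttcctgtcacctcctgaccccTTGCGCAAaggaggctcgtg
Gfi1b promoter: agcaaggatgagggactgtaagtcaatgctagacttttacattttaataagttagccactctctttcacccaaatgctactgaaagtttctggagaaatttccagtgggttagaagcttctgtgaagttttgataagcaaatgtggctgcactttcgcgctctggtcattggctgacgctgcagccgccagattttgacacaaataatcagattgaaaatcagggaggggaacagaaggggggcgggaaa
Gfi1b at 19.6 kb: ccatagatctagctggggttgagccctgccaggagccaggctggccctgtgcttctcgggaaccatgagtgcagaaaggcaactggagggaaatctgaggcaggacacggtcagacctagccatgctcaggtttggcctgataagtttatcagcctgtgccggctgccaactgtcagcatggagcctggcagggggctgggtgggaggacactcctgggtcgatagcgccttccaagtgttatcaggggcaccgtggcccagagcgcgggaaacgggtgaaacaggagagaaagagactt
Gfi1b at 22.5 kb: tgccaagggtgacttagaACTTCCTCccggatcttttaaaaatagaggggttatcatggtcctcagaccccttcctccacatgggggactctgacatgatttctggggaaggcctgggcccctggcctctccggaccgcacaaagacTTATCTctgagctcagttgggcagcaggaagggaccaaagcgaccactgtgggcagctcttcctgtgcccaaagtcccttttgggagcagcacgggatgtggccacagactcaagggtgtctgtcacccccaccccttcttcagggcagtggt
Gfi1b at 23.8 kb: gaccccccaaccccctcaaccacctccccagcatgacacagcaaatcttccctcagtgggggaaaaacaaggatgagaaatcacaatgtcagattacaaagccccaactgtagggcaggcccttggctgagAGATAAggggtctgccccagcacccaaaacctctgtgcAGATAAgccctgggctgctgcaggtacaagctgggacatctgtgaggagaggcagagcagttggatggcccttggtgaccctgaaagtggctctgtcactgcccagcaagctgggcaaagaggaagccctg

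Gfi1 was bound in 12 of the 14 lists and Gfi1b in 8. At least 12 lists were found at 0.0597% of 21774 protein-coding genes treated by the same rule, and at least 8 lists at 2.47%, while the median coding gene held 3. All 6 HP lists had a peak at Gfi1 and all 6 had a peak at Gfi1b. This was the case for 0.459% of coding genes, that is 100 genes at 40 separate places. The windows of the 2 genes were of ordinary size, 129151 bp for Gfi1 and 132533 bp for Gfi1b. The count at Gfi1 rests on distal regions, since with an extension of 20 kb, which leaves out 7 of its 14 regions, 3 lists remained. Most of it rests on a single region, since many lists had their only Gfi1 peak at -33.5 kb. These were C/EBPβ in MES and HB, GATA2 in HB and HP, GATA1 in HP, and RUNX1 in HP and MAC. When each peak was given to the nearest coding TSS, Gfi1 had 12 lists and Gfi1b had 5. With equal windows of 60 kb around each TSS, 0.0459% of coding genes held at least as many lists as Gfi1 and 1.66% at least as many as Gfi1b.

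**Figure D1:**
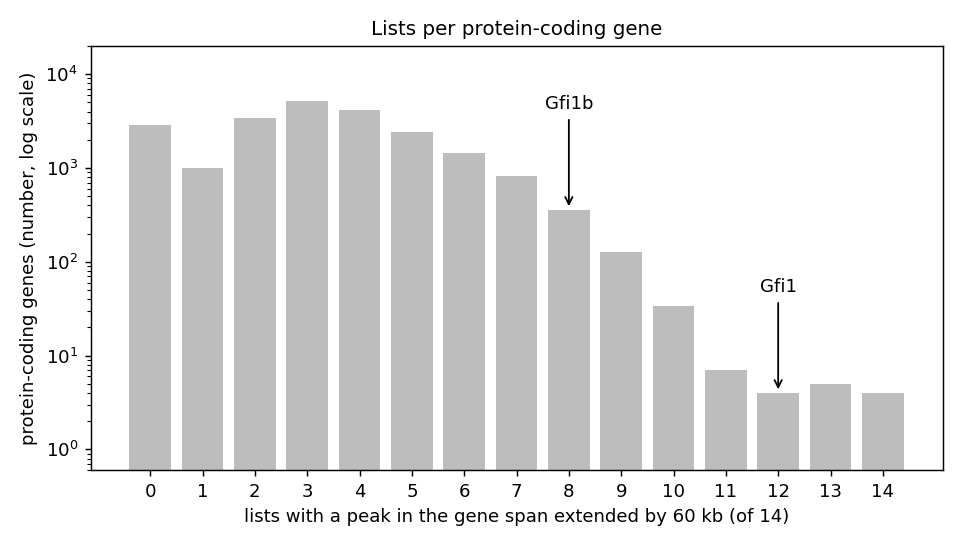
Number of protein-coding genes (vertical axis, log scale) by the number of lists with a peak in the gene span extended by 60 kb (horizontal axis). Gfi1, with 12 lists, stands in a bar of 4 genes, and Gfi1b, with 8, in a bar of 358.

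Before the HP stage the loci differed. In MES, C/EBPβ had 1 peak at Gfi1 and none at Gfi1b, against 11.9% of coding genes with a peak. ELK4 in MES, an ETS factor that acts with serum response factor, had no peak at either gene and was present at 8.54% of coding genes. In HB, C/EBPβ again had 1 peak at Gfi1 and none at Gfi1b (7.72% of coding genes), and so did GATA2, a zinc finger factor of stem and progenitor cells (0.652%). The HE list, with C/EBPβ only, had 132 peaks in all, and none was at either gene (1.36%). None of the lists used here from before the HP stage therefore had a peak at Gfi1b. The study's peaks of TAL1 and LMO2 in HB and HE, and of FLI1 and MEIS1 in HE, were not examined.

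In HP each of the 6 factors with a list used here was present at both genes. C/EBPβ, a basic leucine zipper factor, had 2 peaks at Gfi1 and 1 at Gfi1b, against 25.9% of coding genes with any peak. GATA1, the regulator of red cell and megakaryocyte genes, had 1 and 2 (3.54%), and GATA2 also had 1 and 2 (6.45%). RUNX1, which is required for blood cells to emerge from endothelium, had 1 and 2 (13.9%). The ETS factor PU.1, a driver of myeloid fate, had 2 and 2 (56.5%). GFI1B had 2 peaks in the window of Gfi1 and 4 in that of Gfi1b (21.2%).

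The Gfi1b window held more than 1 HP peak for 5 of these factors. By the nearest coding TSS, however, 9 of its 33 peaks belong to Gfi1b, and 3 of the 4 GFI1B peaks are nearer to Gtf3c5, as are all the HP peaks of GATA1, GATA2 and RUNX1. At least 4 GFI1B peaks were found at 0.106% of coding genes, which is 23 genes at 15 places. At least 2 GATA1 peaks occurred at 0.220% of coding genes, and at least 2 GATA2 peaks at 0.629%. For RUNX1 the share with at least 2 was 2.11%, and for PU.1, whose list was far longer, it was 32.8%. At Gfi1 the 2 GFI1B peaks compare with 4.13% of coding genes that held at least 2.

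In macrophages the picture at the 2 genes was dominated by the longest lists. C/EBPβ had 8 peaks at Gfi1 and 9 at Gfi1b, and 82.4% of coding genes had at least 1, with a median of 5. PU.1 had 8 and 11, and 85.0% of coding genes had at least 1, with a median of 9. Neither number was unusual, since 41.0% of coding genes had 11 or more MAC PU.1 peaks and 27.6% had 9 or more of C/EBPβ. MAC RUNX1 had 1 peak at Gfi1 and none at Gfi1b, and this short list reached 0.987% of coding genes.

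**Figure D2:**
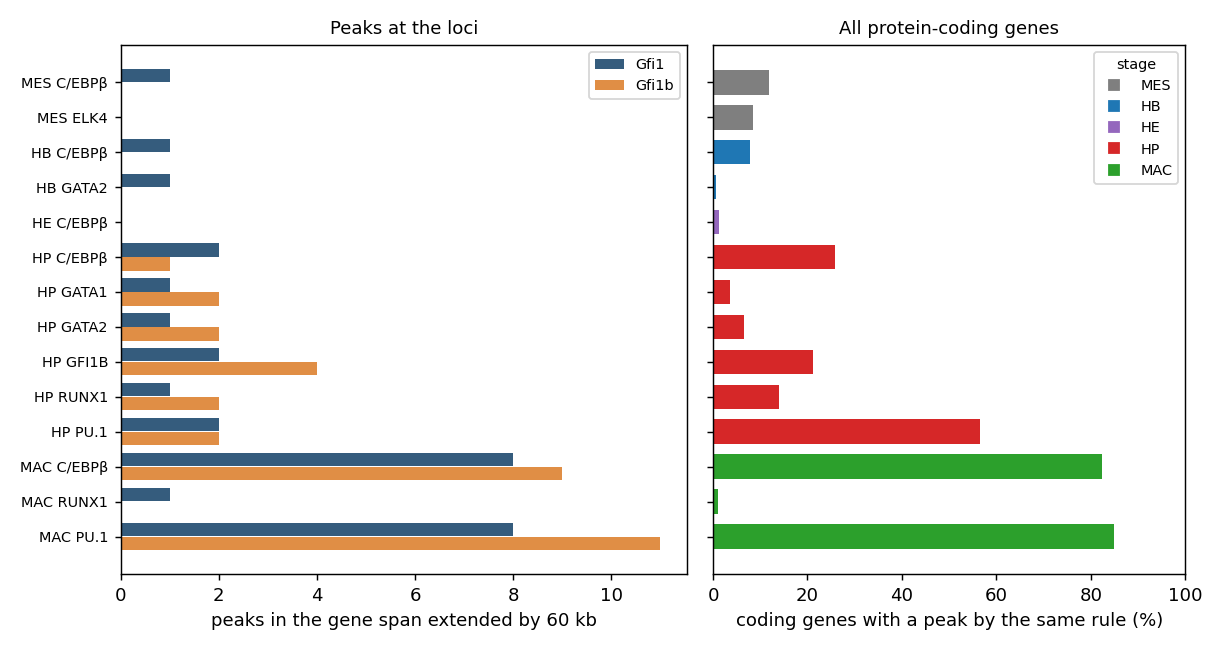
Left, number of peaks at Gfi1 and Gfi1b in each of the 14 lists; right, percentage of all protein-coding genes with at least 1 peak by the same rule, coloured by stage. GFI1B in HP had 4 peaks at Gfi1b although 21.2% of genes had any, whereas the 8 to 11 MAC peaks of C/EBPβ and PU.1 stand beside shares of 82.4% and 85.0%.

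The peaks of all lists were merged wherever they overlapped by at least 1 bp, which gave 14 regions at Gfi1 and 16 at Gfi1b. At Gfi1, 9 regions were found in 1 list, 3 in 2 lists and 2 in 3 or more. At Gfi1b the numbers were 8, 3 and 5. Regions bound in MAC alone numbered 10 at each gene, whereas 4 regions at Gfi1 and 6 at Gfi1b contained an HP peak. The layout around the genes also differed. At Gfi1b, 13 of 16 regions lay downstream of the TSS, and at Gfi1 9 of 14 did, although 18 of the 29 Gfi1 peaks were upstream because so many fell into a single region.

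**Figure D3:**
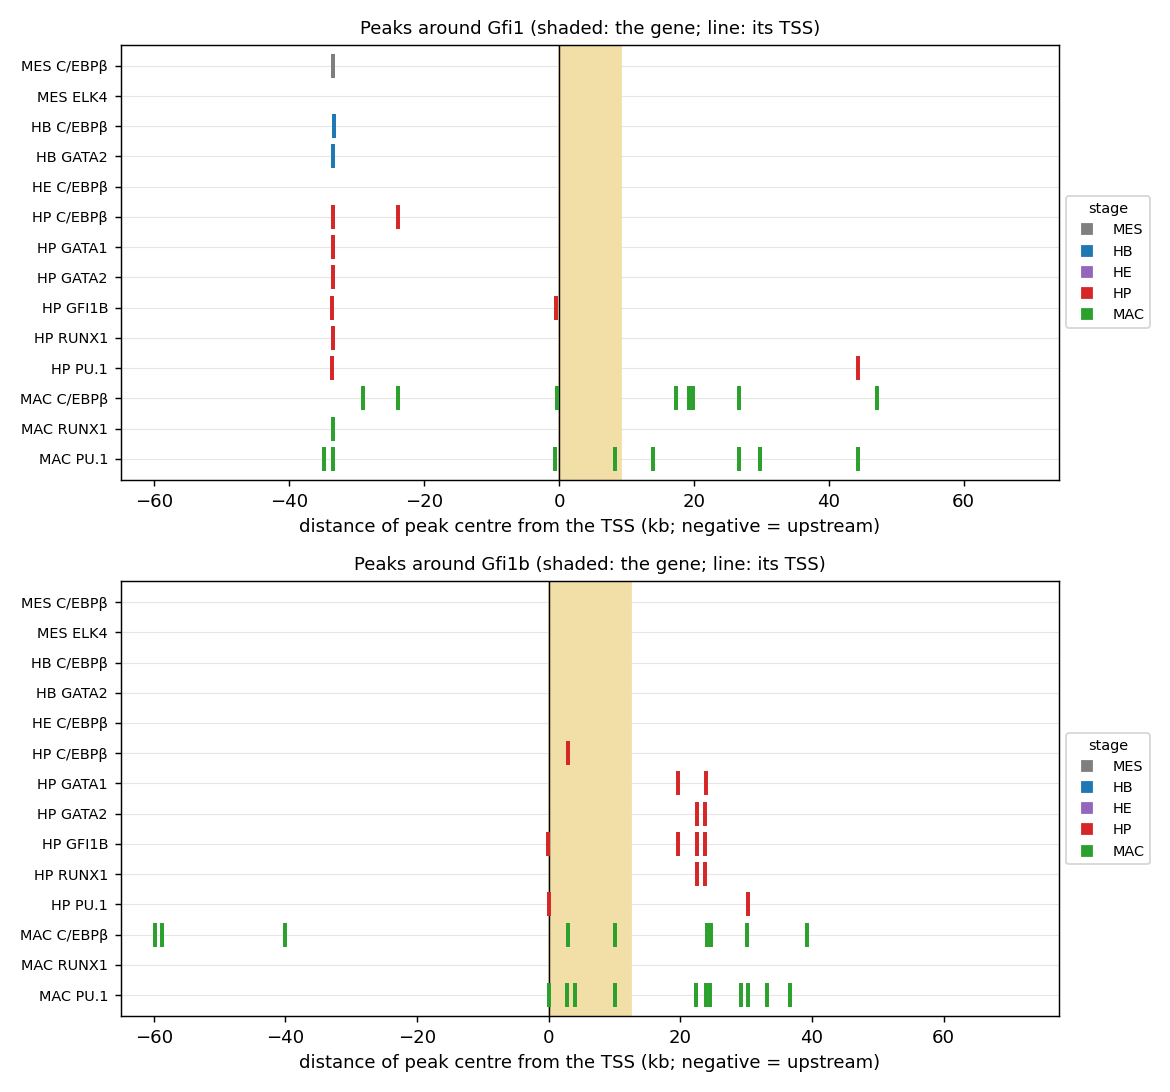
Distance of each peak centre from the TSS in kb (horizontal axis, negative upstream) for the 14 lists (rows, coloured by stage) at Gfi1 (top) and Gfi1b (bottom), with the gene shaded. At Gfi1 11 lists line up at -33.5 kb, and at Gfi1b the HP peaks of GATA1, GATA2 and RUNX1 and 3 of the 4 GFI1B peaks lie between 19.6 and 23.9 kb.

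The region at -33.5 kb of Gfi1 (chr5:107759011-107759614, an intron of Evi5, whose product is a GTPase-activating protein of the cell cycle) was bound in 11 lists. In MES the C/EBPβ peak was centred at -33539 bp. In HB the centres lay at -33405 bp for C/EBPβ and -33455 bp for GATA2. In HP all 6 factors were present, with C/EBPβ at -33450 bp, GATA1 at -33535 bp, GATA2 at -33462 bp, GFI1B at -33609 bp, RUNX1 at -33521 bp and PU.1 at -33596 bp. In MAC the region held RUNX1 at -33498 bp and PU.1 at -33486 bp. The 11 centres thus spread over 204 bp, and the lists without a peak there were ELK4 in MES and C/EBPβ in HE and in MAC. C/EBPβ was thus present in 3 of its 5 lists, and the factors mapped differ from stage to stage. The study's methods give no qPCR enrichment for C/EBPβ in MES and HB, GATA2 in HB and RUNX1 in MAC. Of the 97 HB GATA2 peaks, 6.19% overlapped an HP GATA2 peak, and 15.5% contained the GATA word, which was in 57.9% of HP GATA2 peaks.

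Within this region the distances between centres ranged from 4 bp, between C/EBPβ in MES and GATA1 in HP, to 204 bp, between C/EBPβ in HB and GFI1B in HP. C/EBPβ and GATA2 in HP lay 12 bp apart, beside a median of 63.5 bp over 52 overlapping pairs of the series. RUNX1 and PU.1 in MAC were also 12 bp apart, and GATA1 and RUNX1 in HP were 14 bp apart, beside medians of 46.5 and 42.5 bp. GFI1B and PU.1 in HP lay 13 bp apart at the upstream edge, and GATA2 in HB and HP lay 7 bp apart on the other side of the median. GATA1 and GATA2 in HP were 73 bp apart, whereas the median over the 104 overlapping pairs of the series was 19.5 bp. Other HP pairs were also wider than their medians. GATA2 lay 147 bp from GFI1B (median 62 bp) and 134 bp from PU.1 (71 bp). C/EBPβ lay 159 bp from GFI1B (90.5 bp) and 146 bp from PU.1 (59.5 bp). For RUNX1 the HP and MAC centres were 23 bp apart, beside a median of 18 bp over 36 pairs. The C/EBPβ centres of MES and HB were 134 bp apart, beside a median of 15 bp over 374 pairs. Those of MES and HP were 89 bp apart (median 19 bp over 560 pairs), and those of HB and HP 45 bp (15 bp over 443 pairs). For PU.1 the HP and MAC centres were 110 bp apart, and the median over 10612 pairs was 13 bp.

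Few regions of the genome held so many lists. Of 117293 merged regions, 3 were found in 11 lists or more and 4 contained all 6 HP factors. The others with at least 11 lists were a region nearest to Rpp21 (chr17:36231208-36231622) that held all 14 lists, and one nearest to Esp38 (chr17:39848363-39848980) that held 11. In the Esp38 region 84.2% of the 31-base words occurred once in the genome, and the most frequent of the others occurred 10020 times. In the Gfi1 region all 574 such words occurred once and 1.16% of the bases were in masked repeats. In the Rpp21 region all 385 words also occurred once, with 23.1% of bases masked. Whether a part of the signal in regions with nearly all lists does not depend on the antibody was not tested.

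Nearer to Gfi1, a promoter region (chr5:107725968-107726564) held 3 lists, GFI1B in HP at -514 bp and, in MAC, C/EBPβ at -362 bp and PU.1 at -559 bp. GFI1B was therefore the only one of the 6 HP factors with a peak within 2 kb of a Gfi1 TSS. Such a GFI1B peak was found at 3.87% of coding genes. C/EBPβ in HP and MAC shared a peak at -23.9 kb, also in Evi5, with centres 23 bp apart. PU.1 in HP and MAC shared a peak at 44.3 kb, with centres 18 bp apart. A region at 26.7 kb, in the long noncoding RNA gene 4930428O21Rik, held C/EBPβ and PU.1 in MAC with centres 5 bp apart. The other 9 regions were each found in a single MAC list, between -34.8 kb and 47.2 kb.

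At Gfi1b the promoter region (chr2:28621759-28622220) covered the TSS and overlapped an exon of the noncoding gene Gm52548. It held GFI1B in HP at -38 bp, PU.1 in HP at 4 bp and PU.1 in MAC at 24 bp. An intronic region at 2.90 kb (chr2:28618776-28619349) held C/EBPβ in HP and, in MAC, C/EBPβ and PU.1. Each promoter of the pair thus carried GFI1B in HP and PU.1 in MAC, with 3 lists each, and at least 3 lists within 2 kb of the TSS were found at 12.3% of coding genes. In addition the Gfi1 promoter had C/EBPβ in MAC and the Gfi1b promoter had PU.1 in HP.

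The HP peaks of GATA1, GATA2 and RUNX1, and 3 of the 4 GFI1B peaks, lay together downstream of Gfi1b, past the end of the gene and towards Gtf3c5, which encodes a subunit of the RNA polymerase III factor TFIIIC. At 19.6 kb (chr2:28602155-28602606) GATA1 and GFI1B had centres 52 bp apart. At 22.5 kb (chr2:28599193-28599766) GATA2, at 22548 bp, GFI1B, at 22520 bp, and RUNX1, at 22590 bp, were joined by MAC PU.1 at 22416 bp. At 23.8 kb (chr2:28597778-28598447) all 4 HP factors were present, GATA1 at 23855 bp, GATA2 at 23765 bp, GFI1B at 23787 bp and RUNX1 at 23735 bp. This region also held MAC PU.1 at 23956 bp and MAC C/EBPβ at 24005 bp. The regions at 10.1 kb, in an intron of Gfi1b, and at 24.6 kb held C/EBPβ and PU.1 in MAC. A further region at 30.3 kb (chr2:28591475-28591991) held PU.1 in HP and both PU.1 and C/EBPβ in MAC.

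HP and MAC peaks were set apart inside the regions at 22.5 and 23.8 kb. No factor had a peak at both stages in these regions, so stage and factor cannot be told apart there. In the -33.5 kb region of Gfi1, by contrast, RUNX1 and PU.1 had peaks at both stages. At 23.8 kb the HP centres lay within 120 bp of each other, and the nearest MAC centre, that of PU.1, was 101 bp from GATA1. At 22.5 kb the 3 HP centres lay within 70 bp, and MAC PU.1 was 104 bp from the nearest of them. At the -33.5 kb region of Gfi1 the MAC centres fell among the HP centres instead, with MAC PU.1 24 bp from GATA2 and MAC RUNX1 23 bp from HP RUNX1. Between GFI1B and MAC PU.1 the gap was 104 bp at 22.5 kb and 169 bp at 23.8 kb, beside a median of 111 bp over 788 overlapping pairs of the series. Between GATA2 and MAC PU.1 it was 132 and 191 bp, beside a median of 86.5 bp over 258 pairs. Between HP RUNX1 and MAC PU.1 it was 174 and 221 bp, beside a median of 88 bp over 614 pairs. The 101 bp between GATA1 and MAC PU.1 at 23.8 kb stand beside a median of 90 bp over 98 pairs.

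**Figure D4:**
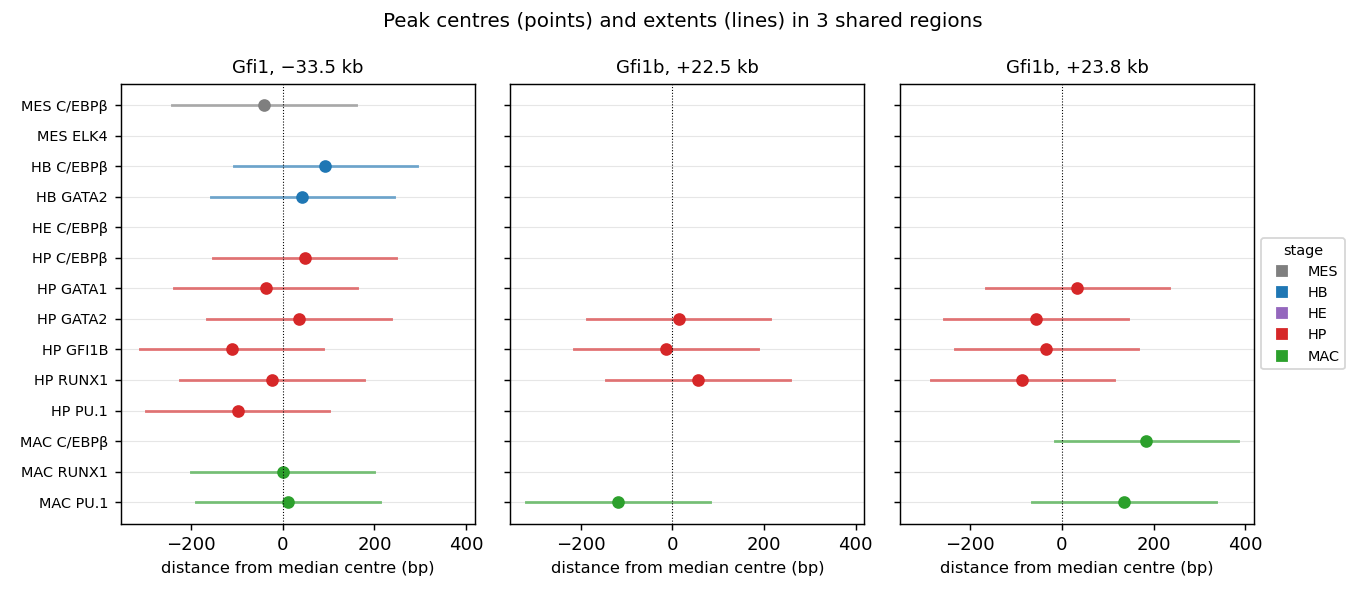
Peak centres (points) and the 400 bp extents (lines) of each list in the regions at -33.5 kb of Gfi1 and at 22.5 and 23.8 kb of Gfi1b, as the distance in bp from the median centre in the reading direction of the gene. The 11 centres at Gfi1 spread over 204 bp, and at 23.8 kb the MAC centres lie 101 bp or more to the downstream side of the 4 HP centres.

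The combination of GATA1, GATA2, GFI1B and RUNX1 in HP was found at 31 of the 117293 regions. Of these, 1 was at Gfi1 (-33.5 kb) and 1 at Gfi1b (23.8 kb). GATA2, GFI1B and RUNX1 met at 45 regions, 1 at Gfi1 and 2 at Gfi1b, and GATA1 and GFI1B met at 94, again 1 and 2. GFI1B and PU.1 shared 218 regions, 1 at each gene. Over the series, the HP GFI1B peaks overlapped C/EBPβ in 5.25% of cases, GATA1 in 4.56%, GATA2 in 6.0%, RUNX1 in 8.67% and PU.1 in 10.4%. At Gfi1b, 2 of the 4 GFI1B peaks overlapped GATA1, 2 overlapped GATA2, 2 overlapped RUNX1, 1 overlapped PU.1 and 0 overlapped C/EBPβ. At Gfi1, 1 of the 2 GFI1B peaks, that at -33.5 kb, overlapped all 5 other HP factors.

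Following a factor over the stages, C/EBPβ occupied the -33.5 kb region of Gfi1 in MES, HB and HP but not in MAC. C/EBPβ was present in MES, HB and HP at 323 regions of the series, and the Gfi1 region was 1 of only 6 of these without a MAC C/EBPβ peak. The nearest MAC C/EBPβ peak lay 4376 bp away, at -29.1 kb. Of the 2716 HP C/EBPβ peaks, 91.4% overlapped a MAC C/EBPβ peak; at Gfi1 this held for 1 of 2 and at Gfi1b for 1 of 1. PU.1 in HP was retained in MAC for 97.0% of its peaks, and for 2 of 2 at each gene. Of the 977 HP RUNX1 peaks, 3.68% overlapped a peak of the short MAC RUNX1 list, and this held for 1 of 1 at Gfi1 and 0 of 2 at Gfi1b. GATA2 in HB and HP shared 7 regions, 1 of them at Gfi1.

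The words in the 6 GFI1B regions differed from place to place. The GFI1 word AATCACNGC was in none of them and in none of the 6 GFI1B peaks, and it occurred in 10.2% of all HP GFI1B peaks, in 0.958% of the central 300 bases of all regions and in 0.776% of all promoters over 250 bases. AGATAA was found in 3 of the 6 regions and in 13.3% of all regions. The shorter word GATAA was in 50.3% of all HP GFI1B peaks, so GATA words are frequent in that list as a whole. Over whole peaks AGATAA was in 64% of the HP GATA1 list and 57.9% of the HP GATA2 list. At Gfi1b it was in 1 of 2 HP GATA1 peaks and 2 of 2 HP GATA2 peaks, and at Gfi1 in 1 of 1 of each. At 23.8 kb of Gfi1b it occurred 2 times, 12 bp from the GATA1 centre and 40 bp from the GATA2 centre, and at 22.5 kb it lay 14 bp from the GATA2 centre. At -33.5 kb of Gfi1 it was 100 bp or more from each GATA centre.

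TGTGGT, present in 24.3% of all regions, was found in the -33.5 kb region of Gfi1 only. There it occurred 2 times, 14 bp from the HP RUNX1 centre and 15 bp from the MAC RUNX1 centre. Neither RUNX1 peak at Gfi1b contained this word, which was in 47.1% of HP RUNX1 peaks. For RUNX factors only TGTGGT and the longer TGTGGTT were searched. Variants with other letters, such as TGCGGT, were not, so these peaks cannot be said to lack a RUNX site. The C/EBP word of the Gfi1 promoter lay 18 bp from the MAC C/EBPβ centre, and the PU.1 word at 22.5 kb of Gfi1b lay 10 bp from the MAC PU.1 centre. These words were in 23.2% and 17.5% of all regions. The C/EBPβ peaks at -33.5 kb of Gfi1 contained no C/EBP word, whereas 61.3% of MES, 59.2% of HB and 64.0% of HP C/EBPβ peaks did. None of the 4 HP PU.1 peaks at the 2 genes contained GAGGAAGT, which was in 42.1% of HP PU.1 peaks. ELK and AP-1 words were in none of the 6 regions, and CCGGAAGT was in 1.19% and TGANTCA in 15.3% of all regions.

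Genes whose extended span overlaps that of Gfi1 or Gfi1b, and which can therefore hold the same peaks, were left out of a search for similar patterns; among them Evi5 had 12 lists, and Gtf3c5, Tsc1 and Cel had 8. Among the other coding genes, those whose pattern over the 14 lists was most like that of Gfi1 were Ier2, Lyl1, Nacc1, Trmt1 and Nfix. Each shared all 12 lists and added ELK4 in MES, for a Jaccard index (shared lists over lists in either) of 0.923, and all of them lie next to each other, so that they count as 1 place. The 13 coding genes with 12 lists or more lay at 4 places in all, and they include Evi5, whose window shares the Gfi1 peaks, and Tal1. For Gfi1b, 37 genes without such an overlap had the identical pattern, and those with the most similar peak numbers were Plpp7, Ncor1, Pigl, Cenpv and Slc51a. Between Gfi1 and Gfi1b the index was 0.667, with 8 shared lists.

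Other genes of the pathway were described in the same way. A list of 10 other TF genes, taken from the blood-related factors of the study's network without its pluripotency factors, had a median of 5 lists (3 to 12), and Runx1 and Tal1 had all 6 HP lists. GFI1B in HP had a peak at 6 of these 10, beside 21.2% of all coding genes. The 7 genes of the co-repressors with which GFI1 proteins act, such as Kdm1a (LSD1), Rcor1 (CoREST) and Hdac1, had a median of 4 lists (2 to 6), and none had all HP lists. GFI1B had a peak at 2 of these 7. A list of 16 regulators, such as Runx1, Lyl1 and Myb, was drawn up as possible upstream factors of the pair. Whether each acts on either gene was not tested. They had a median of 5.50 lists (3 to 13), and 3 of them (Runx1, Tal1 and Lyl1) had all HP lists. GFI1B had a peak at 11 of these 16. Some genes stand in more than 1 of these lists.

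Which gene a distal peak acts on was not tested. The windows also contain Evi5, Tsc1 and Gtf3c5, which had 12, 8 and 8 lists by the same rule, with many of the same peaks. At Gfi1b the regions from 19.6 kb onwards are nearer to the TSS of Gtf3c5 than to that of Gfi1b, and the most distant lies 593 bp from the Gtf3c5 TSS. The upstream regions of Gfi1b, at -40.0, -58.8 and -59.9 kb, lie inside Tsc1 and held MAC C/EBPβ alone.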

How the data were processed

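The lists used here come from chromatin immunoprecipitation followed by sequencing of 7 factors in 5 cell populations. These are a part of the factors that the study mapped. The authors trimmed reads with CutAdapt, aligned them with Bowtie to mm10 (GRCm38), kept unique positions, removed duplicates with Picard, called peaks with MACS against the input of the same stage and refined them with polyPeak. Each list has its own threshold, picked by visual inspection of reference genes. Some libraries joined technical sequencing runs, and the HE sample, with few cells, was processed with carrier mRNA and recombinant histone. The tools' versions are not given in the sources used here. The deposited values are peak positions in bp, each 400 bp wide, with no scores or counts, so no interval or statistical test could be given.

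Peaks were assigned to coding genes of RefSeq GRCm38 by overlap with the span extended by 60 kb; a peak was promoter-proximal within 2 kb of a TSS. Peaks of all lists were merged at 1 bp of overlap. Counts of lists and peaks are read against the percentage of 21774 coding genes called alike, and regions against all merged regions. Regions in at least 3 lists, regions with a promoter-proximal peak and the 5 genes with no overlapping window and the highest Jaccard index are named, and the regions with a GFI1B peak are printed; regions in 2 lists were added after their values were seen. Words were searched on both strands in the central 300 bases of regions, whole peaks and 32851 RefSeq promoters. The uniqueness of 31-base words was counted over the main chromosomes, and 1 peak on another sequence was left out of word searches. Alternatives were other extensions, distances, words and sets of lists, and assignment to the nearest coding TSS. Members and lists were chosen with earlier results of these data known. Python 3.11.15, NumPy 2.4.6 and Matplotlib 3.10.9 were used, and the programs were tested on simulated data.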

Additional observations from a re-analysis of the deposited data

How the results depend on the processing

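With an extension of 20 kb, the lists at Gfi1 fell to 3, its peaks to 10 and its regions to 7, with at most 3 lists in a region, and the regions left outside include those at -33.5, -23.9 and 44.3 kb; at Gfi1b 10 regions were left. With 100 kb, Gfi1b had 59 peaks in 32 regions. When peaks were given to the nearest coding TSS, Gfi1b had 5 lists, 9 peaks and 4 regions. The regions from 19.6 kb onwards are nearer to Gtf3c5, and those at -40.0, -58.8 and -59.9 kb to Tsc1 or Ak8. Without the MAC C/EBPβ and PU.1 lists, Gfi1 had 13 peaks in 4 regions and Gfi1b had 13 peaks in 6 regions. At 5 kb from a TSS, 5 lists were promoter-proximal at Gfi1b. With the letters AATCA the GFI1B regions with a GFI1 word rose to 5, and with GATAA those with a GATA word to 5. Over all regions AATCA was in 40.6% and GATAA in 28.6%. Over whole peaks of the HP GFI1B list, AATCA was in 67.5% and GATAA in 50.3%. Both words were chosen after seeing the data. Other settings left counts within 1.5 times. No paired analysis was possible because each group held 1 list, and leaving out replicates was not possible for the same reason.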

Other observations

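Shorter words were searched after the sequences had been seen. AATCA, the core of the GFI1 recognition sequence, was in 5 of the 6 HP GFI1B peaks at the 2 genes, and not in the peak at 19.6 kb of Gfi1b. It was present in 67.5% of all HP GFI1B peaks, so this count is near the share of the whole list. It lay 6 bp from the GFI1B centre at the Gfi1 promoter and 4 bp from the centre at the Gfi1b promoter. At -33.5 kb of Gfi1 the distance was 22 bp, and at 22.5 and 23.8 kb of Gfi1b it was 37 and 35 bp. Over the series, 42.0% of HP GFI1B peaks had AATCA within 50 bp of the centre, the highest share of the 14 lists, and the other lists ran from 7.16% (HP RUNX1) to 19.6% (MAC C/EBPβ). In the central 300 bases of all regions it was present in 40.6%.

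GATAA was in all 3 HP GATA1 peaks and all 3 HP GATA2 peaks at the 2 genes, and in the HB GATA2 peak at Gfi1. Over whole peaks it was present in 86.8% of the HP GATA1 list, 77.9% of the HP GATA2 list and 37.1% of the HB GATA2 list. At 19.6 kb of Gfi1b, where AGATAA was not found, it occurred 3 times, the nearest 27 bp from the GATA1 centre. At -33.5 kb of Gfi1 it lay 28 bp from the GATA1 centre, 45 bp from the HP GATA2 centre and 52 bp from the HB GATA2 centre. Within 50 bp of the centre, GATAA was in 74.4% of HP GATA1 and 60.4% of HP GATA2 peaks, but in 6.19% of the 97 HB GATA2 peaks, below its share in HP C/EBPβ peaks (11.9%). The HB GATA2 peak at Gfi1 belongs to that list.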
